A study of Mus musculus with 8 samples.

Results

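The receptors described here are 9 mouse genes through which transmitters and stress hormones act on a cell: Adrb1, Nr3c1, Vipr1, Chrnb1, Chrna9, Chrna6, Chrna7, Chrm1 and Chrm4. They were found on the array as the non-control probes whose RefSeq accession maps to one of these symbols, which gave 13 probes, out of 55681 non-control probes and 20284 named genes. The samples were 4 pools of NK cells from mouse spleen that carried a ChAT-eGFP reporter signal (ChAT_positive) and 4 pools without it (ChAT_negative). The reporter marks cells that make choline acetyltransferase, the enzyme of acetylcholine synthesis, and every pool held cells of 2 to 4 mice. Strain, age and treatment of the mice are not given in the sources used here, and nothing in them says whether pools shared mice, so p-values measure the spread between these pools. Each pool was hybridised to one 1-colour Agilent array, and the number of arrays limits the precision. Values below are log2 of the processed intensity minus the 75th percentile of the same array, so that 0 is the brightness of the 75th percentile probe.

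Acetylcholine acts on nicotinic receptors, ion channels assembled from several subunits, and on muscarinic receptors, which signal through G proteins. Noradrenaline from splenic nerves and adrenaline from the adrenal gland act on adrenergic receptors, vasoactive intestinal peptide acts on VPAC receptors, and glucocorticoids act on a nuclear receptor that binds DNA. Beta adrenergic and VPAC receptors raise cyclic AMP, which in lymphocytes is known to dampen cytotoxicity and cytokine release.

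The promoters of 3 members are shown because they stand for the members' different behaviour: Adrb1 passed the test, Vipr1 was near background on several arrays, and the means of Chrnb1 lay close together. They are RefSeq sequences of the GRCm38.p6 build, 250 bases before to 50 after the start site on the gene's own strand, at chr19:56721867-56722166 (plus strand) for Adrb1, chr9:121642466-121642765 (plus strand) for Vipr1 and chr11:69795888-69796187 (minus strand) for Chrnb1. Capitals mark the cyclic AMP response element half-site, TGACG or its complement CGTCA.
Adrb1: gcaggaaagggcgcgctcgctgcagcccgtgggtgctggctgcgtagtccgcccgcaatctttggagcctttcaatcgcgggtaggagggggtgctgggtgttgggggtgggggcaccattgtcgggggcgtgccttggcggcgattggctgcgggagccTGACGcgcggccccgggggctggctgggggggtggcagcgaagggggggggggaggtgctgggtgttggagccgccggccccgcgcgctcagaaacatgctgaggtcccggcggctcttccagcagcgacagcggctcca
Vipr1: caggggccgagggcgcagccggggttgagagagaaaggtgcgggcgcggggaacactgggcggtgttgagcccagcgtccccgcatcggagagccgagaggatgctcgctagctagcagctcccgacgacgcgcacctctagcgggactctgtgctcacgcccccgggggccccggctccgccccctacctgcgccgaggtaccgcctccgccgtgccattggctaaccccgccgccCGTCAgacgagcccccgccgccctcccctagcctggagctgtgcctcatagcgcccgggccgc
Chrnb1: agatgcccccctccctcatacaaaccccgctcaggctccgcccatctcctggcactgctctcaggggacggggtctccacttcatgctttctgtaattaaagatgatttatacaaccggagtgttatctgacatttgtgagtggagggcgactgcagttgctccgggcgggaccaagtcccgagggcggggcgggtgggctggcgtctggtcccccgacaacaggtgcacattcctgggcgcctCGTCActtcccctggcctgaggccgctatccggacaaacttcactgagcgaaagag
Of the 9 members, 6 had a promoter in the RefSeq table, and these 3, but not the other 3, held the half-site on either strand, as did 20.8% of all 32851 promoters. The match began 90 bases before the start site in Adrb1, 13 in Vipr1, where 1 base of it lies in a GC box, and 6 in Chrnb1. The full element TGACGTCA, found in 1.79% of all promoters, was in none of the 6 windows, and neither was the glucocorticoid half-site TGTTCT, found in 19.0%. GC boxes (GGGCGG on either strand, in 35.7% of all promoters) numbered 1 in Adrb1, 4 in Vipr1 and 4 in Chrnb1. A match describes these letters and is not a measured binding site.

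Between 50.2% and 63.2% of non-control spots per array were well above background, and all 14 NK identity markers, Ncr1 and Eomes among them, were well above background on all 8 arrays. So were all 10 B cell markers, all 8 platelet markers, 8 of 10 T cell markers and 12175 of the 20284 named genes. This detection therefore does not tell NK cells from other cells. Chat, on which the reporter is built, averaged 3.75 ± 0.25 in ChAT_positive and 2.65 ± 0.34 in ChAT_negative pools (SD, n = 4 each), 2.15-fold higher by limma (adjusted p = 0.0201). This call was lost without ChAT_positive replicate 3 or ChAT_negative replicate 4 (up to 0.0648), without both arrays numbered 3 (0.118) and with no filter on dim probes (0.053). Its probe was well above background on all 8 arrays. In the annotation Chat overlaps Slc18a3, so this probe may not tell these transcripts apart. Each group filled a slide of its own, read in its own scan, so for every comparison below the slide and the reporter signal cannot be told apart. Differences in pooled cells do not tell a smaller number of cells of a type from less RNA in each cell.

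Adrb1 was called lower in ChAT_positive pools, close to the threshold, and lost this call under 12 of 21 alternatives. Nr3c1 had a higher mean in ChAT_positive pools, and the acetylcholine receptor genes did not pass the test in either direction. Of the 9 members, 8 were tested and 1, Chrna7, stayed below the detection filter, which asked for a probe well above background on at least 4 of 8 arrays. By limma over 13606 genes, 0 members rose and 1 fell. Over all tested genes 5.95% were called, 2.81% higher and 3.15% lower, so 1 call among 8 members is a result about Adrb1 and not about the set. At an unadjusted p under 0.05 there were 3 members (Adrb1, Chrna9 and Nr3c1, the last with the higher mean), where 24.8% of all tested genes passed. The groups did not overlap for 2 of the 8 members, Adrb1 (lower) and Nr3c1 (higher), where 15.5% of all tested genes showed this, 9.34% higher and 6.15% lower. The median log2 fold change of the 8 was -0.22, against 0.025 over all tested genes. Vipr1 and Chrna9 passed the filter mostly through ChAT_negative arrays, so this median describes the 8 and is no test of the set.

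**Figure D1:**
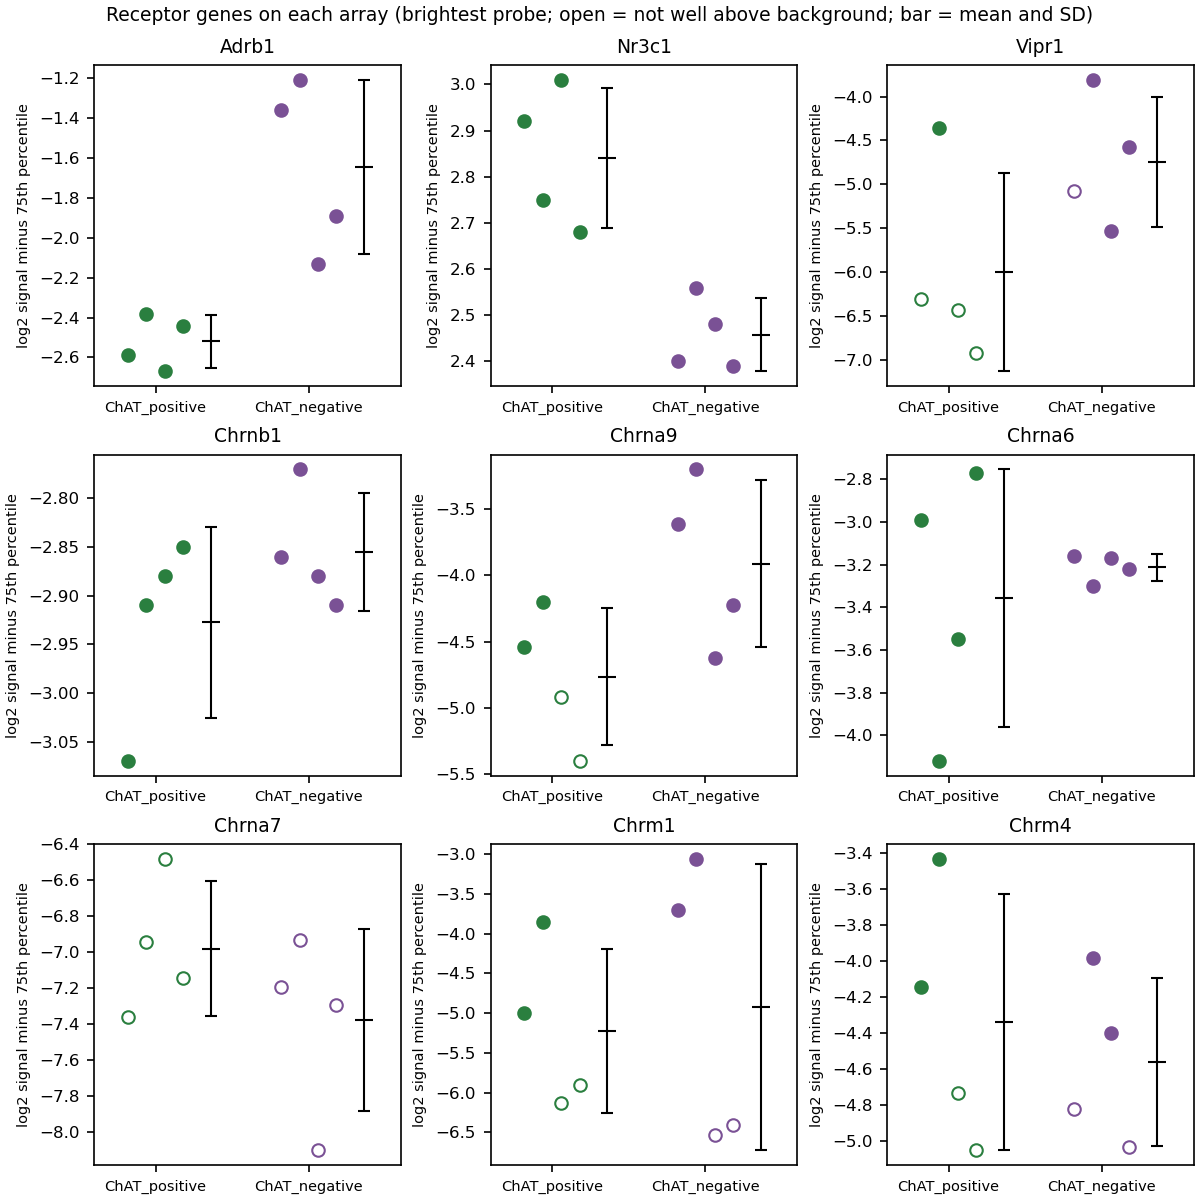
Log2 signal minus the array's 75th percentile (y axis) of the brightest probe of each receptor gene, for the 4 ChAT_positive and 4 ChAT_negative pools; open points are not well above background, and the bar beside each group is its mean with its SD. The groups do not overlap for Adrb1, which is lower in ChAT_positive pools, and for Nr3c1, which is higher; every Chrna7 point is open.

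Adrb1 encodes the beta-1 adrenergic receptor, which binds noradrenaline and adrenaline and couples to the stimulatory G protein. Its brighter probe read -2.59, -2.38, -2.67 and -2.44 in ChAT_positive pools, against -1.36, -1.21, -2.13 and -1.89 in ChAT_negative pools. All 4 ChAT_positive pools lay below the lowest ChAT_negative pool, and the ChAT_negative pools were the more scattered. The mean was -2.52 ± 0.13 in ChAT_positive and -1.65 ± 0.44 in ChAT_negative pools (SD, n = 4 each), a log2 difference of -0.87 (SE 0.21, limma adjusted p = 0.0447), or 1.83-fold lower (95% interval 1.32 to 2.54). The two-sided p by exact permutation was 0.0286, the lowest value that 8 arrays in 2 equal groups can reach. Unscaled, this probe's processed intensity was 291 to 484 in ChAT_positive and 567 to 905 in ChAT_negative pools, and it was well above background on all 8 arrays.

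A second Adrb1 probe, also well above background on all 8 arrays, read -2.31, -3.18, -3.54 and -3.68 in ChAT_positive pools, against -1.96, -2.61, -2.86 and -2.29 in ChAT_negative pools. Of the ChAT_positive pools, 3 lay below every ChAT_negative pool and replicate 1 lay among them. Its difference was -0.75 (SE 0.31), in the same direction as the brighter probe, with a limma adjusted p of 0.184 when each probe was tested on its own; the exact permutation p was 0.0857. The Adrb1 call lay close to the threshold. With 1 array left out it held only without ChAT_negative replicate 3, and was lost without any of the 7 others (highest adjusted p 0.125, with ChAT_positive replicate 3 left out), while the log2 fold change stayed between -1.03 and -0.72. It was also lost with the probes averaged (0.0575), under median scaling (0.0895), with no filter on dim probes (0.096), with one at 1 of 8 arrays (0.0646) and without both arrays numbered 3 (0.103).

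**Figure D2:**
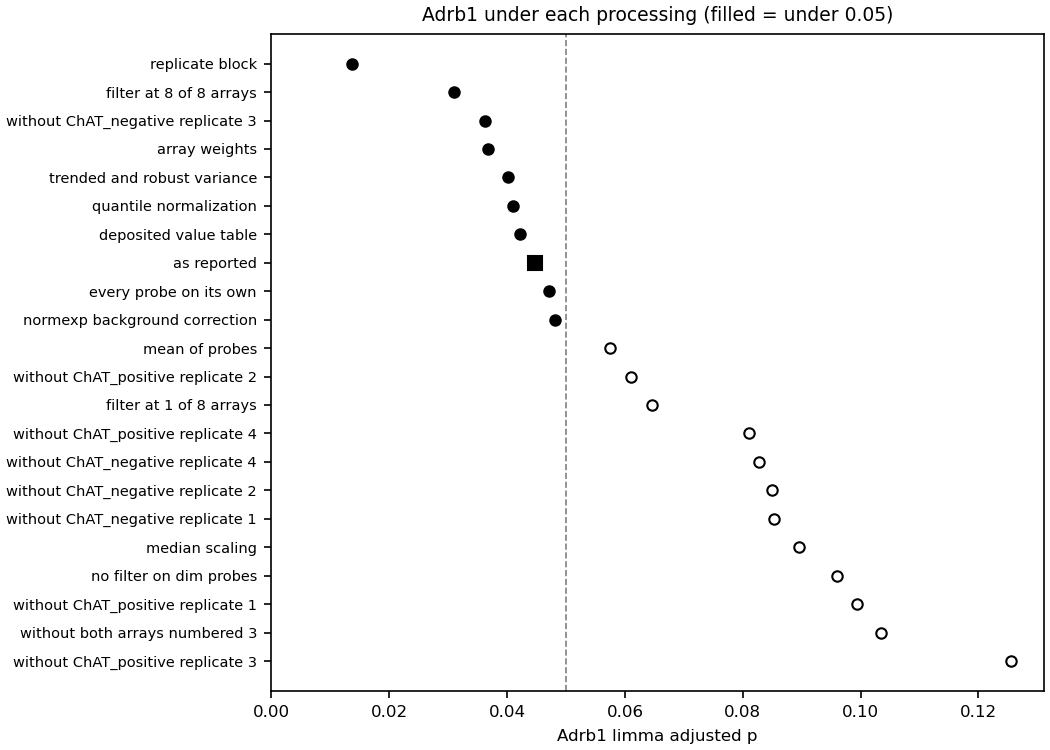
Limma adjusted p of Adrb1 (x axis) under the reported processing (square) and each of the 21 alternatives (circles); filled points lie under 0.05, the dashed line. The reported value of 0.0447 and 9 alternatives lie under the line, and 12 lie above it.

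Other cell types' markers also differed between the pools. Of 7 tested basophil and mast cell markers 5 fell, and their summed signal, in multiples of each array's 75th percentile intensity, was 4.71 to 6.91 in ChAT_positive and 12.6 to 45.9 in ChAT_negative pools. Of 10 tested B cell markers 6 rose, with sums of 79.0 to 105.9 in ChAT_positive and 50.1 to 66.4 in ChAT_negative pools. Of 9 tested markers of innate-like T cells and innate lymphoid cells 3 rose, with sums of 21.5 to 30.4 in ChAT_positive and 15.7 to 21.1 in ChAT_negative pools. Of 14 NK identity markers 3 fell, with sums of 170.1 to 252.5 in ChAT_positive and 257.2 to 308.5 in ChAT_negative pools. The mean was lower in ChAT_positive pools for 13 of these 14 and higher for 1. Of the neutrophil markers 2 of 7 fell (32.0 to 56.6 in ChAT_positive, 48.7 to 80.0 in ChAT_negative pools), and of the dendritic cell markers 2 of 7 (40.5 to 54.8 in ChAT_positive, 36.6 to 50.1 in ChAT_negative pools). Of the erythroid markers 2 of 4 fell (9.78 to 11.1 in ChAT_positive, 17.6 to 21.1 in ChAT_negative pools), and of the platelet markers 2 of 8 (3.55 to 9.03 in ChAT_positive, 7.92 to 24.1 in ChAT_negative pools). An unadjusted limma p under 0.05 was reached by 11 of 14 NK, 7 of 7 basophil and mast cell, and 8 of 10 B cell markers. It was also reached by 5 of 9 innate-like, 4 of 7 neutrophil, 3 of 7 dendritic cell, 2 of 4 erythroid and 4 of 8 platelet markers. Over all tested genes 24.8% reached it and 5.95% were called. None of 10 T cell markers was called by limma, with 0 at an unadjusted p under 0.05 and sums of 16.2 to 27.9 in ChAT_positive and 16.2 to 23.6 in ChAT_negative pools. None of 6 monocyte and macrophage markers was called, with 1 at an unadjusted p under 0.05 and sums of 4.67 to 6.26 in ChAT_positive and 5.63 to 8.24 in ChAT_negative pools. The part of these cells in the receptor differences was not tested.

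Nr3c1 encodes the glucocorticoid receptor, a transcription factor that enters the nucleus once it binds corticosterone. Its brighter probe read 2.92, 2.75, 3.01 and 2.68 in ChAT_positive pools, against 2.40, 2.56, 2.48 and 2.39 in ChAT_negative pools. Every ChAT_positive pool lay above every ChAT_negative pool, and the pools of each group lay close together. The means were 2.84 ± 0.15 in ChAT_positive and 2.46 ± 0.08 in ChAT_negative pools (SD, n = 4 each). The log2 fold change was 0.38 (SE 0.12), or 1.30-fold (95% interval 1.08 to 1.57), with a limma adjusted p of 0.0895, which misses the threshold. The exact permutation p was 0.0286. Before scaling the groups overlapped on this probe, at processed intensities of 11826 to 17938 in ChAT_positive and 11021 to 17492 in ChAT_negative pools. Nr3c1 kept a higher mean in ChAT_positive pools under all 21 alternatives, by 0.32 to 0.60 on the log2 scale (0.60 under median scaling, which raised the median of all genes to 0.24), and was called under none of them (adjusted p 0.0525 to 0.267).

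A second Nr3c1 probe gave a mean of -2.89 ± 0.42 in ChAT_positive and -3.27 ± 0.62 in ChAT_negative pools (SD, n = 4 each), and its groups overlapped. Its difference of 0.38 (SE 0.32) had the size of that of the brighter probe but a wider spread between pools (limma adjusted p = 0.508 with each probe tested on its own). Both probes were well above background on all 8 arrays.

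Vipr1 encodes the VPAC receptor that binds vasoactive intestinal peptide and its relative PACAP. Its one detectable probe read -6.31, -4.36, -6.43 and -6.92 in ChAT_positive pools, against -5.08, -3.81, -5.53 and -4.57 in ChAT_negative pools. It stood well above background in 1 of the 4 ChAT_positive pools, replicate 2, and in 3 of the 4 ChAT_negative pools, all except replicate 1. The groups overlapped through that 1 ChAT_positive pool, and the others lay below every ChAT_negative pool. The means were -6.01 ± 1.13 in ChAT_positive and -4.75 ± 0.74 in ChAT_negative pools (SD, n = 4 each), a log2 difference of -1.26 (SE 0.56, limma adjusted p = 0.203; exact permutation p = 0.114). The 95% interval of the fold ran from 5.74-fold lower to 1.00-fold. These values sit near background, at an unscaled intensity of 21 to 85 in ChAT_positive and 63 to 149 in ChAT_negative pools, so the size of the difference rests on dim signal. The other Vipr1 probe was not well above background on any array. Without ChAT_positive replicate 2 the log2 fold change was -1.81 and Vipr1 was called (adjusted p = 0.0363), while normexp background correction gave -0.33 (0.515).

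The nicotinic subunits gave values that did not pass the test. Chrnb1 encodes the beta subunit of the muscle-type receptor. It read -3.07, -2.91, -2.88 and -2.85 in ChAT_positive pools, against -2.86, -2.77, -2.88 and -2.91 in ChAT_negative pools. The groups overlapped, and all 8 values lay within a narrow band. The log2 difference of -0.075 (SE 0.11, limma adjusted p = 0.699) had a 95% interval of 0.80 to 1.12-fold. With 75th percentile scaling its mean was lower in ChAT_positive pools, but the sign turned under median scaling (0.14) and quantile normalization (0.072).

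Chrna6 encodes a subunit known from dopamine neurons. It read -2.99, -4.12, -3.55 and -2.77 in ChAT_positive pools, against -3.16, -3.30, -3.17 and -3.22 in ChAT_negative pools. The ChAT_negative pools lay close together (SD 0.064, n = 4), and the ChAT_positive pools fell on both sides of them, 2 above and 2 below (SD 0.61, n = 4). The means of -3.36 in ChAT_positive and -3.21 in ChAT_negative pools gave a log2 difference of -0.14 (SE 0.27, limma adjusted p = 0.781), whose sign turned under median scaling, quantile normalization, normexp and without ChAT_positive replicate 2. The probe was well above background on all 8 arrays.

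Chrna9 encodes a subunit known from the hair cells of the inner ear and from immune cells. It read -4.54, -4.20, -4.92 and -5.40 in ChAT_positive pools, against -3.61, -3.20, -4.62 and -4.22 in ChAT_negative pools. The groups overlapped, with ChAT_positive replicates 3 and 4 below every ChAT_negative pool. Its probe stood well above background in 2 of the 4 ChAT_positive pools and in all 4 ChAT_negative pools. The means were -4.77 ± 0.52 in ChAT_positive and -3.91 ± 0.63 in ChAT_negative pools (SD, n = 4 each), a log2 difference of -0.85 (SE 0.35, limma adjusted p = 0.169; exact permutation p = 0.143). The mean was lower in ChAT_positive pools under all 20 alternatives that gave it a value, by -1.09 to -0.39.

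Chrna7 encodes the subunit of a receptor that forms from that subunit alone and is known from macrophages, where it lowers cytokine release. Its probe is printed 10 times on each array, and 1 of the 80 spots, in ChAT_negative replicate 1, was well above background. The spot averages ranged from -7.36 to -6.48 in ChAT_positive and from -8.10 to -6.93 in ChAT_negative pools, at the level of probes with no detected signal, so no fold change is given. Of the 16 nicotinic subunit genes on the array 11, Chrna7 among them, had no probe counted as well above background on any array. Chrna6 and Chrnb1 were the 2 detected on all 8.

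The muscarinic members were seen on some arrays of each group. Chrm1, whose receptor signals through Gq and phospholipase C, read -5.00, -3.86, -6.13 and -5.90 in ChAT_positive pools, against -3.70, -3.06, -6.53 and -6.41 in ChAT_negative pools. In each group replicates 1 and 2 were well above background and replicates 3 and 4 were not, so the spread within a group (SD 1.03 in ChAT_positive and 1.80 in ChAT_negative pools, n = 4 each) exceeded the difference between groups. The log2 fold change was -0.30 (SE 0.85, limma adjusted p = 0.866). Its other probe was not well above background on any array. Chrm4, whose receptor couples to Gi, read -4.14, -3.43, -4.73 and -5.05 in ChAT_positive pools, against -4.82, -3.98, -4.40 and -5.03 in ChAT_negative pools. The groups overlapped and 2 of 4 arrays in each were well above background. The log2 fold change was 0.22 (SE 0.36, limma adjusted p = 0.749). The signs of both changed with 1 array left out, that of Chrm1 without ChAT_positive replicate 3 or ChAT_negative replicate 1 or 2, and that of Chrm4 without ChAT_positive replicate 2. Chrm1 also changed sign with array weights. In the GRCm38.p6 annotation Chrm4 overlaps Mdk and Chrna9 overlaps 4930480C01Rik, so their probes may not tell these transcripts apart.

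**Figure D3:**
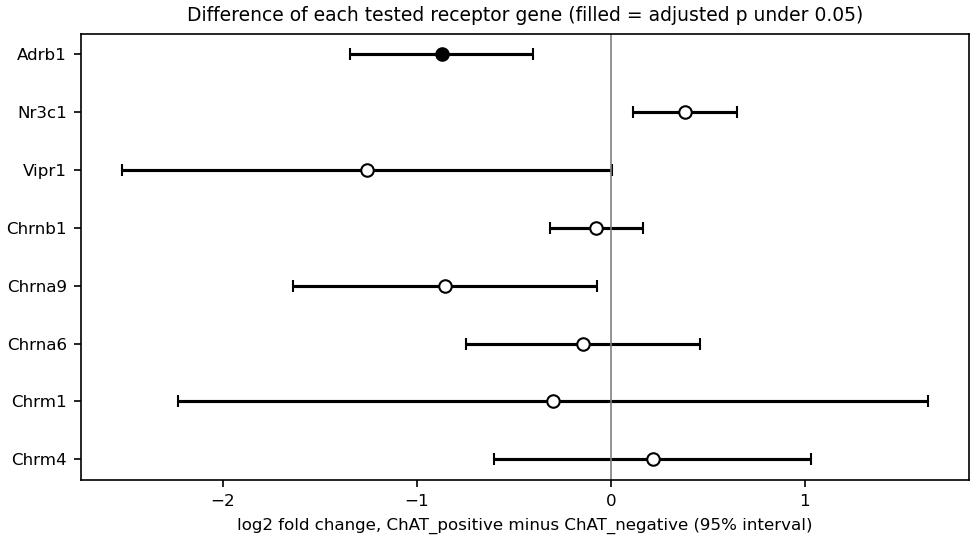
Log2 fold change of ChAT_positive minus ChAT_negative pools (x axis) with its 95% interval for the 8 tested receptor genes; the filled point passed the test. The Adrb1 interval lies below 0, and that of Chrm1 is the widest. The interval of Nr3c1 lies above 0 and that of Chrna9 (-1.64 to -0.07) below 0, both without passing after adjustment over all genes.

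For the 4 members detected on all 8 arrays, the 3 tested genes with the most similar profile were found by the root mean square difference of log2 values, centred per gene, over the 8 arrays. For Adrb1 these were Mtnr1b at 0.10, Pi16 at 0.11 and Rapsn at 0.13. Mtnr1b encodes a melatonin receptor and Rapsn the protein that clusters muscle nicotinic receptors. For Nr3c1 they were Rab3ip at 0.061, Cwf19l1 at 0.065 and Add3 at 0.065. For Chrnb1 they were Rabgap1l at 0.057, Fam126b at 0.060 and Coa6 at 0.060, and for Chrna6 they were Layn, Mdfi and Ube2t, all at 0.18. All 3 were shared under median scaling for each of the 4 members, which tests nothing. That scaling shifts every gene of an array alike, so it cannot change these differences. Under quantile normalization 2 of 3 were shared for Adrb1, 1 for Nr3c1, 1 for Chrna6 and 0 for Chrnb1, and under normexp 1 for Adrb1, 1 for Nr3c1, 1 for Chrna6 and 0 for Chrnb1.

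Most other receptor genes of these classes were not detected or did not pass the test, and 3 of them passed it. Of 154 genes on the array from 9 receptor lists that include the members, 76 (49.4%) were not well above background on any array, against 23.5% of all named genes, and 38 were on all 8. Of the 46 tested genes that are not members, 1 rose and 2 fell. With Adrb1, 4 of 54 tested receptor genes were called (7.41%, against 5.95% of all genes). The median log2 difference of the 54 was -0.31, against 0.025 over all tested genes. Some of them passed the filter mostly through ChAT_negative arrays, Vipr1 and Chrna9 among them, and Nmur1 mostly through ChAT_positive arrays. This median therefore describes the 54 and is no test of them.

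**Figure D4:**
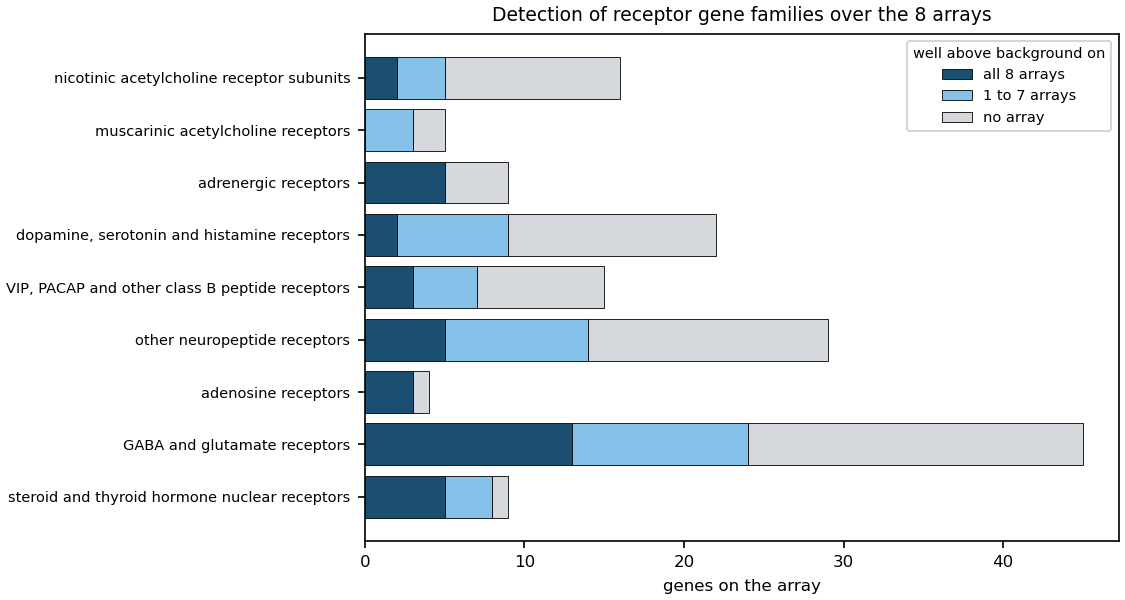
Number of genes on the array (x axis) in each of the 9 receptor lists, split by whether any probe was well above background on all 8 arrays, on 1 to 7, or on none. None of the 5 muscarinic receptor genes and 2 of the 16 nicotinic subunit genes are in the darkest class, and 5 of the 9 adrenergic receptor genes are.

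Nmur1, the receptor for the neuropeptide neuromedin U and known from type 2 innate lymphoid cells, was the one that rose. It read -3.18, -4.15, -3.62 and -3.21 in ChAT_positive pools, against -5.05, -6.02, -5.90 and -5.05 in ChAT_negative pools. The groups did not overlap. The probe stood well above background in all 4 ChAT_positive pools but in only 1 of the 4 ChAT_negative pools, so it passed the filter through the group where it was higher, and the size of the difference rests on dim ChAT_negative signal. The log2 fold change was 1.96 (SE 0.30, limma adjusted p = 0.0115), and 1.13 with normexp background correction (0.0076). It was called with any 1 array left out, and was not tested with a filter at 8 of 8 arrays.

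The 2 that fell were adenosine receptors. Adora2b, which couples to the stimulatory G protein, read -3.64, -2.97, -3.25 and -2.74 in ChAT_positive pools, against -1.18, -1.71, -1.37 and -1.69 in ChAT_negative pools, 3.17-fold lower (log2 fold change -1.66, SE 0.21, limma adjusted p = 0.00646). Adora3, which couples to Gi, read -3.14, -2.23, -2.57 and -2.18 in ChAT_positive pools, against -1.43, -0.85, -0.59 and -0.85 in ChAT_negative pools, 3.03-fold lower (log2 fold change -1.60, SE 0.25, adjusted p = 0.0122). The groups did not overlap for either, and both calls held whichever array was left out. A second Adora2b probe differed by -1.11 in the same direction. Adora3 overlaps Tmigd3 in the annotation, so its probe may not tell them apart. Of the marker lists given above, those of B cells and of innate-like T and innate lymphoid cells had calls in the direction of Nmur1. Those of basophils and mast cells, NK cells, neutrophils, dendritic cells, erythroid cells and platelets had calls in the direction of the adenosine receptors. The part of those cells in these differences was not tested. Without both arrays numbered 3, which leaves 3 arrays a group, these 3 receptor genes and the signalling and target genes below were not called, and 21 genes were called higher and 35 lower over the whole array.

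Among proteins that serve the receptors, 84 genes were tested and 1 rose and 2 fell (3.57%, against 5.95% of all genes). Their median log2 difference was -0.024, against 0.025 over all tested genes. Of the 10 tested factors that assemble or modulate nicotinic receptors, Lynx1 rose and Ly6h fell, both members of the Ly6 family that bind nicotinic receptors in the brain. Lynx1 averaged 1.05 ± 0.32 in ChAT_positive and 0.09 ± 0.18 in ChAT_negative pools (SD, n = 4 each), 1.95-fold higher (log2 fold change 0.96, SE 0.18, limma adjusted p = 0.0209), and its second probe averaged -1.75 in ChAT_positive and -2.85 in ChAT_negative pools. Ly6h averaged -3.12 ± 0.23 in ChAT_positive and -1.90 ± 0.61 in ChAT_negative pools (SD, n = 4 each), 2.33-fold lower (adjusted p = 0.0411), and its second probe stayed below that detection level on all 8 arrays. Of the 34 tested cyclic AMP pathway genes Pde4a, a phosphodiesterase that degrades cyclic AMP, fell by 0.69 on the log2 scale (SE 0.12, adjusted p = 0.0199). The call of Lynx1 did not hold when ChAT_positive replicate 1, ChAT_positive replicate 3 or ChAT_negative replicate 3 was left out (adjusted p up to 0.061), that of Pde4a without ChAT_positive replicate 3 or ChAT_negative replicate 4 (up to 0.0644), and that of Ly6h without any array except ChAT_negative replicates 1 and 2 (up to 0.121). Median scaling also ended the calls of Pde4a (-0.47, adjusted p = 0.237) and Ly6h (0.0585), as did leaving dim probes unfiltered (0.0552 for Pde4a, 0.0876 for Ly6h), which ended that of Lynx1 as well (0.0555). Ly6h further lost its call under quantile normalization (0.0505) and with a filter at 1 of 8 arrays (0.0614). None of 22 glucocorticoid receptor chaperones and ligand enzymes was called by limma, with 6 at an unadjusted p under 0.05. Over all tested genes 24.8% passed that unadjusted threshold. Hsd11b1, which regenerates active glucocorticoid and was chosen after its values were seen, differed by -0.89 on the log2 scale (adjusted p = 0.0523).

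Of 46 tested genes that glucocorticoids or cyclic AMP are known to induce, 1 rose and 4 fell (10.9%, against 5.95% of all genes). Their median log2 difference was -0.28, against 0.025 over all tested genes. Of the 27 glucocorticoid-induced genes 2 fell. The mean was lower in ChAT_positive pools for 18 and higher for 9. An unadjusted limma p under 0.05 was reached by 14 of them, in either direction, and by 24.8% of all tested genes. Sgk1, a kinase, read 0.41, 1.00, 0.17 and 1.05 in ChAT_positive pools, against 1.99, 2.62, 2.06 and 2.53 in ChAT_negative pools, with no overlap, 3.11-fold lower (log2 fold change -1.64, SE 0.24, limma adjusted p = 0.0103). The Sgk1 call held whichever array was left out. Cebpd, a transcription factor, differed by -0.80 on the log2 scale (SE 0.18, adjusted p = 0.0368), a call that held in only 2 of the 8 fits with 1 array left out, those without ChAT_positive replicate 2 or ChAT_negative replicate 1 (highest adjusted p 0.108). It was also lost under median scaling (-0.58, adjusted p = 0.15) and with dim probes unfiltered (0.083) or filtered at 1 of 8 arrays (0.0529). Fkbp5 and Tsc22d3, widely used glucocorticoid response genes that were named after their values were seen, differed by -0.34 (adjusted p = 0.285) and -0.27 (0.215) on the log2 scale.

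Of the 21 cyclic AMP and CREB-induced genes 1 rose and 2 fell. The mean was lower in ChAT_positive pools for 15 and higher for 6. An unadjusted limma p under 0.05 was reached by 9 of them, in either direction, and by 24.8% of all tested genes. Areg, an epidermal growth factor family ligand, averaged 0.62 ± 0.57 in ChAT_positive and -1.98 ± 0.66 in ChAT_negative pools (SD, n = 4 each) and was 6.06-fold higher (limma adjusted p = 0.0088). Btg2, an inhibitor of proliferation, fell by 0.85 on the log2 scale (SE 0.14, adjusted p = 0.0155), a call lost under median scaling (-0.63, adjusted p = 0.128) and without ChAT_positive replicate 3 (0.0518). Rgs2, which turns off Gq signalling, fell by 0.49 (SE 0.12, adjusted p = 0.0478), a call lost whichever array was left out (up to 0.124), under median scaling (-0.27, adjusted p = 0.419), quantile normalization (0.0818) and normexp (0.0732), with dim probes unfiltered (0.109) or filtered at 1 of 8 arrays (0.0614), and with every probe tested on its own (0.0518). With the probes averaged it differed by -1.16 (0.0144). A dimmer Rgs2 probe stood well above background in 0 of the 4 ChAT_positive pools and in all 4 ChAT_negative pools. Sgk1 overlaps Gm46215 and Gm18511 in the annotation, and Cebpd overlaps Spidr.

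**Figure D5:**
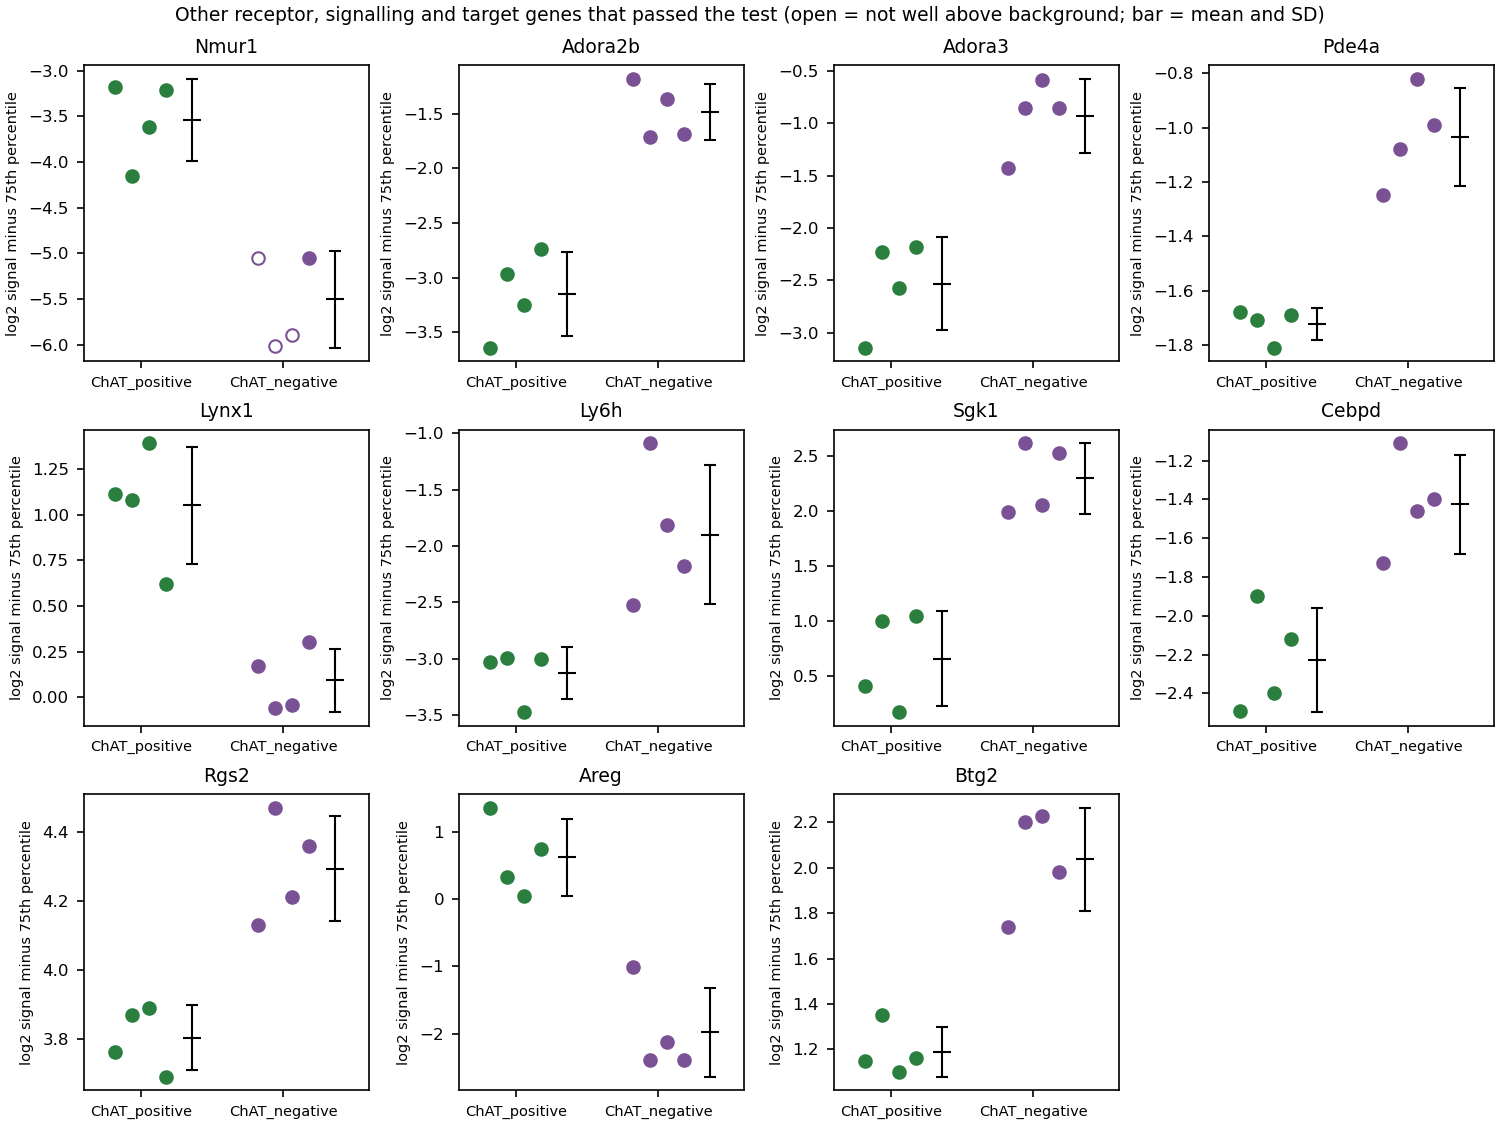
Log2 signal minus the array's 75th percentile (y axis) in the 4 ChAT_positive and 4 ChAT_negative pools for the 11 called receptor, signalling and target genes other than Adrb1; open points are not well above background, and bars are the mean and SD. Nmur1, Lynx1 and Areg are higher in ChAT_positive pools, the other 8 are lower, and the groups do not overlap in any panel. The genes were chosen by their calls on these same arrays, so this separation is no further result. Over all tested genes 15.5% did not overlap.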

How the data were processed

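RNA of 8 pooled NK cell samples (100 ng total RNA each, per the labels' protocols) was measured on 1-colour arrays. The deposited spot intensities were made by Agilent Feature Extraction 11.5.1.1, per the file headers, with background already taken off and no scaling from array to array, and come with flags per spot (0 or 1). The authors also deposited a log2 value table of 31942 probes. Each of its columns followed log2 processed intensity minus that array's 75th percentile, within 0.0065 at the median, and column medians lay between -0.72 and -0.63. No source used here says how its probes were chosen.

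Control spots were dropped, 1344 outlier-flagged spot values were left out except in 51 probe values where every spot was flagged, spots were averaged and 0 spots were saturated. A probe counted as well above background where over 50% of its spots were. RefSeq accessions, without versions, named 26762 of 55681 probes with 1 gene (GRCm38.p6; the array was annotated on mm9, so gene positions are not given). The brightest probe well above background on at least 4 of 8 arrays stood for a gene. ChAT_positive minus ChAT_negative was tested with limma's lmFit and eBayes (version 3.58.1, R 4.3.3; a gene was called where its two-sided p, adjusted by Benjamini-Hochberg across the 13606 genes, was under 0.05), and single members also with exact permutation tests (scipy 1.17.1). The procedure was also run on simulated data with independent normal noise. That noise left out the slide and scan that go with each group, so no result here rests on it.

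The members, lists and the naming rule were chosen with earlier results of these data known. The rule names every member, up to 4 called genes per receptor, signalling or target list, and the 3 genes closest in profile to each member detected on all 8 arrays, with antigen receptor segments and genes of provisional name passed over; Chat is named as the check of the sort, and genes said to be named after their values were seen are outside it. Alternatives changed the scaling, the background correction (normexp on median spot signals, offset 50), the filter on dim probes, how a gene's probes were combined, the variance model, weights for arrays, a replicate block or the value table, or left out arrays.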

Additional observations from a re-analysis of the deposited data

How the results depend on the processing

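Among the members, 0 were called higher under all 21 alternatives. Called lower was 1, and 0 under median scaling, with dim probes unfiltered or filtered at 1 of 8 arrays, with the probes averaged and without both arrays numbered 3; the count ranged from 0 to 1 with 1 array left out. Of the members, 8 were detected on at least 4 arrays, by either detection flag. Receptor genes called (4) ranged from 3 to 6 with 1 array left out and were 0 without both arrays numbered 3. Signalling genes called (3) ranged from 0 to 6 with 1 array left out, and were 1 under median scaling, 5 under normexp, a trended and robust variance or array weights, 6 with a filter at 8 of 8 arrays or the deposited table, and 0 with no filter or without both arrays numbered 3. Target genes called (5) ranged from 2 to 6 with 1 array left out, and were 2 under median scaling, 3 with no filter or one at 1 of 8 arrays, 8 with a trended and robust variance or array weights, and 0 without both arrays numbered 3. Counts without arrays rest on fewer samples; the cause of the other changes was not tested.

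Median scaling moved the median log2 fold change of all genes from 0.025 to 0.24, and Adrb1 was at -0.65 there. The sign turned for Chrnb1 under median scaling (0.14) and quantile normalization (0.072), and for Chrna6 under median scaling (0.074), quantile normalization (0.033), normexp (0.023) and without ChAT_positive replicate 2 (0.11; range -0.34 to 0.11). It turned for Chrm1 with array weights (0.17) and without ChAT_positive replicate 3 (0.008), ChAT_negative replicate 1 (0.11) or replicate 2 (0.33; range with 1 array left out -0.83 to 0.33), and for Chrm4 without ChAT_positive replicate 2 (-0.086; range -0.086 to 0.46). The alternatives for the most similar profiles were chosen after seeing the data.

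With the replicate number as a block, 3 members were called lower (Adrb1 with adjusted p = 0.0137, Chrna9 with 0.0144 and Vipr1 with 0.0191), and 21 receptor, 11 signalling and 13 target genes were called. Calls also rose over the whole array. Of all 13606 tested genes, 1002 were called higher and 1344 lower with the block, against 382 and 428 without it. The labels do not say that a number marks a shared source. Deviations of same-numbered arrays correlated at 0.54, 0.66, 0.52 and 0.032 for numbers 1 to 4. Those of differently numbered arrays ranged from -0.55 to 0.40. The numbers were not taken as pairs because the labels do not pair them. Whether same-numbered pools shared a source was not tested. Signal over background limits Vipr1, Chrna9, Chrm1 and Chrm4, each near background on some arrays, and Chrna7, which was not detected.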
